A study of Mus musculus with 12 samples.

Results

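The genes described here are 9 extracellular or membrane-bound antagonists of bone morphogenetic proteins (BMPs) and activins, measured in CD34+ and CD34- keratinocytes of mouse skin. They are Grem1, Nog, Chrd, Chrdl1, Fst, Fstl3, Sostdc1, Bambi and Twsg1, and all probe sets that the platform annotation ties to exactly 1 of them were taken, which gave 17 of the 45037 probe sets tested. The rule names genes by family and not by their values, although results of these data were known when it was written. The CD34+ group holds skin cells picked by magnetic sorting (MACS) for CD34, a glycoprotein on the surface of bulge cells of the hair follicle, and the CD34- group holds the cells of the same skin preparations without it. All cells came from mice whose strain is labelled C57 DBA, pooled at 6 or more animals per isolation, with 3 isolations and 2 Affymetrix mouse arrays per RNA. The labels name no further genotype or treatment, and the age of the mice is given only as adult, in the series title. Each group therefore had 6 arrays that stand for 3 RNA samples, and since the labels do not tell arrays of 1 RNA from those of another, the 12 arrays were entered as separate samples, which makes p-values too small wherever such arrays are alike.

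BMPs and activins are secreted dimers of the TGF-beta family that bind pairs of receptor kinases, which phosphorylate SMAD proteins that then act in the nucleus. The antagonists bind the ligands outside the cell and keep them from their receptors, or sit in the membrane in place of a receptor. In the hair follicle, BMP signalling is known to hold bulge stem cells in rest, and antagonists released around the follicle are known to counter it when a growth phase starts.

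Upstream sequence was at hand for 4 of the 9 genes (RefSeq, GRCm38.p6), and it is shown for the 3 of them with a probe set that passed the test, 1 that was higher and 2 that were lower in CD34+ cells, so that the composition of genes of opposite direction can be read. Each is the 250 bases before the annotated start, at chr2:113758649-113758898 on the minus strand for Grem1, chr10:79777024-79777273 on the plus strand for Fstl3 and chr17:65951188-65951437 on the minus strand for Twsg1. Capitals mark matches on either strand to GTCTG, a short form of the SMAD-binding element, and to GGCGCC, a GC-rich element known to bind BMP-activated SMADs. The motifs do not overlap each other in these windows.
Grem1: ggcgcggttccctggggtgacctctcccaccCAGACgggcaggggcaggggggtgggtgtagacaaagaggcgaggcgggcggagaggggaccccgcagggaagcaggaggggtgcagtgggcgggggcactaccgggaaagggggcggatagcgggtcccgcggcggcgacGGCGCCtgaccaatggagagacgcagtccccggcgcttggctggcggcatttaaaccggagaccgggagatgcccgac
Fstl3: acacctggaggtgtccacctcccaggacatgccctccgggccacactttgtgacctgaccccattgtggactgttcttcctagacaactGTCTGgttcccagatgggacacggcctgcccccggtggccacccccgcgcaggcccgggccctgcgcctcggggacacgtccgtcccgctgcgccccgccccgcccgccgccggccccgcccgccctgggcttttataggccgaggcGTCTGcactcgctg
Twsg1: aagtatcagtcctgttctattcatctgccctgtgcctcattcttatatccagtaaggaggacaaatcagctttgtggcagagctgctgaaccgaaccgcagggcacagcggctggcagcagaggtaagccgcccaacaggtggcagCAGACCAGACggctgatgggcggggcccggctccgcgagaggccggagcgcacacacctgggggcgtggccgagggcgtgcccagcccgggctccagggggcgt
The Grem1 window holds 1 GTCTG match and 1 GGCGCC match, while those of Fstl3 and Twsg1 each hold 2 GTCTG matches and 0 of GGCGCC. The Chrd window, not printed since Chrd had no call, holds 0 GTCTG matches and 1 GGCGCC match. Among 32851 windows of the same length, 42.2% held GTCTG and 9.59% held GGCGCC, so that a GTCTG match is common. GC content was 72.0% for Grem1, 71.2% for Fstl3, 64.4% for Twsg1 and 78.0% for Chrd. The matches describe letters and not bound sites.

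The values are log2 expression values made with RMA, 1 per probe set and array. Differences are given as CD34+ minus CD34- on that scale, with limma's standard error (SE), and a probe set was called when its limma p, adjusted over all 45037 probe sets by the Benjamini-Hochberg method, was under 0.05. The sort marker Cd34 averaged 10.15 ± 0.55 on CD34+ arrays and 3.23 ± 0.30 on CD34- arrays (n = 6 each, SD). Of 6 keratinocyte markers 5 were called lower and 0 higher in CD34+ cells, with Krt14 at 11.83 ± 0.62 in CD34+ and 13.20 ± 0.25 in CD34- arrays. Of 8 bulge markers 7 were called higher and 0 lower, and these include Cd34 itself, which the sort selected. Over 18193 genes with 1 probe set each, 7.73% were called higher and 17.5% lower. With CD34+ arrays 1, 3 and 5 left out, 3 of the keratinocyte markers were lower and 7 of the bulge markers higher. CD34+ arrays 1, 3 and 5 stood apart, with a standard deviation over probe sets of 1.92 to 2.07 against 2.19 to 2.32 in the other 9 arrays. The called antagonists are therefore also given without these 3 arrays. For Actb, the 3' control probe set exceeded the 5' one, a sign of RNA quality, by 3.95 to 5.65 in CD34+ and 1.82 to 3.24 in CD34- arrays. For Gapdh the excess was 3.66 to 4.63 against 3.10 to 3.57. This sign of quality cannot be told apart from the fraction. Leaving out CD34+ arrays 1, 3 and 5 does not remove it, as CD34+ arrays 2, 4 and 6 read 3.95 to 5.65 for Actb. The 3 Trpn control probe sets read 2.31 to 2.95 over all arrays, which is taken here to show where low values lie.

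The antagonists split in direction. Grem1, Bambi and Fst had a probe set that was higher in CD34+ cells, Twsg1, Fstl3 and Sostdc1 had a probe set that was lower, and Nog, Chrd and Chrdl1 had no probe set that passed. Of the 17 probe sets 7 were called, 3 higher and 4 lower, which is 41.2% beside 21.5% of all probe sets (7.64% higher and 13.9% lower). The arrays of both fractions did not overlap for 6 of the 17, 3 in each direction, beside 10.9% of all probe sets (4% higher and 6.86% lower). The median difference over the 17 was 0.21, beside 0.064 over all probe sets. Over the 24624 probe sets with a mean of at least 4 the median was -0.11, and 6 of the 17 averaged under 4. The median of the 17 is therefore partly set by low-reading probe sets. In sorted cells of this kind, fewer cells that express a gene and less RNA per cell cannot be told apart. Without CD34+ arrays 1, 3 and 5, 6 of the 7 calls held in the same direction and no other probe set was called, beside 15.6% of all probe sets (7.36% higher and 8.22% lower), and the call that was lost was that of Sostdc1.

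**Figure D1:**
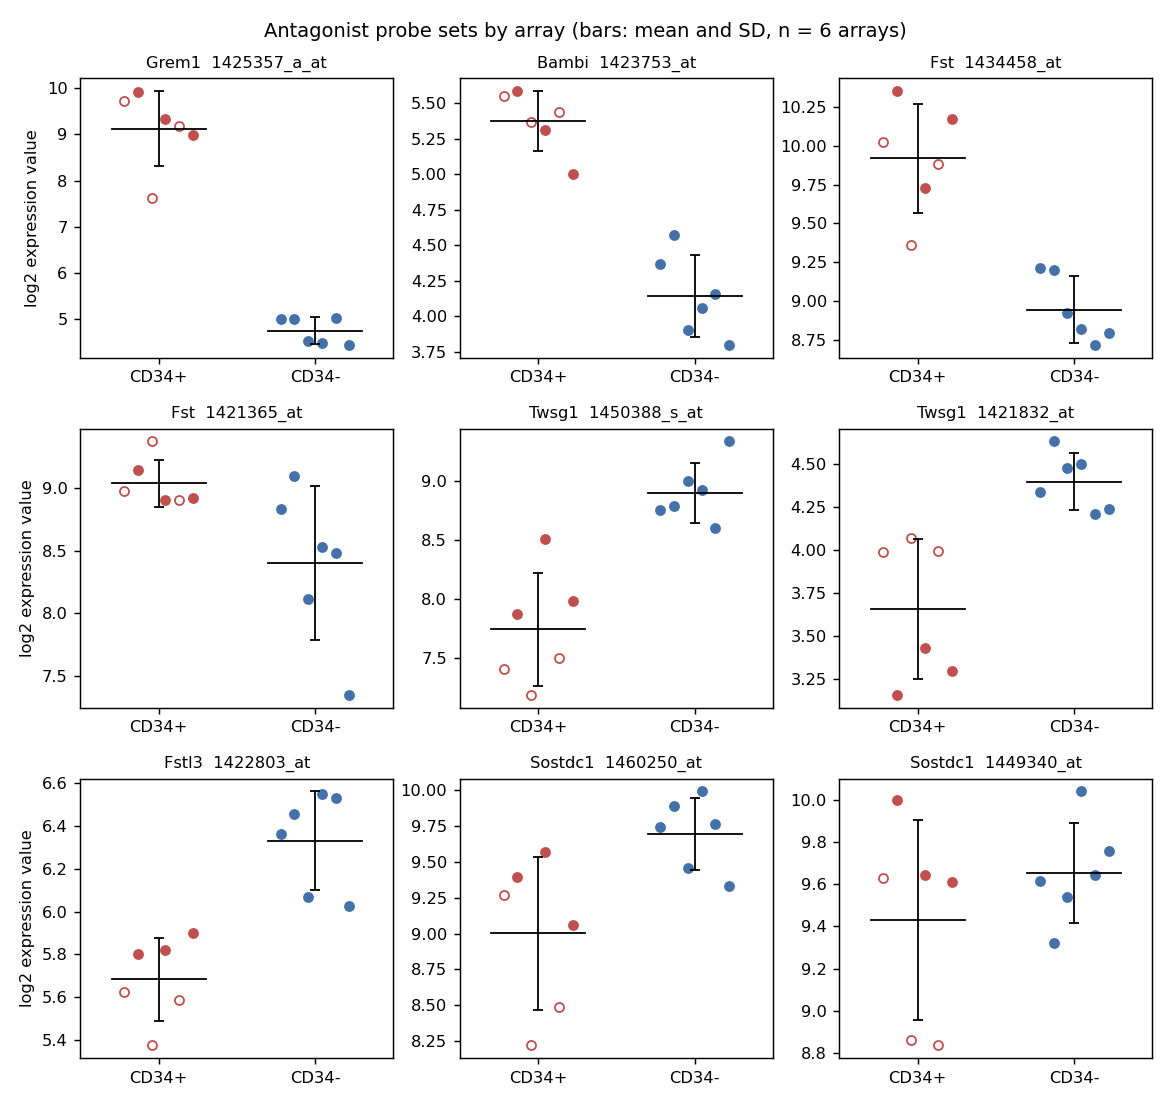
Log2 expression values (vertical axes) of 9 antagonist probe sets on 6 CD34+ arrays (red, left) and 6 CD34- arrays (blue, right), with open circles for CD34+ arrays 1, 3 and 5 and bars for mean and SD. Vertical scales differ between panels and do not start at 0. Grem1, Bambi, Fst 1434458_at, both Twsg1 probe sets and Fstl3 have arrays that do not overlap between fractions, while those of Fst 1421365_at and of both Sostdc1 probe sets do.

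Grem1, which encodes gremlin 1, a secreted cystine-knot protein that binds BMP2, BMP4 and BMP7, had the largest difference of the 17 probe sets. Its single probe set (1425357_a_at) read 9.72, 9.92, 7.64, 9.33, 9.17 and 8.98 on CD34+ arrays 1 to 6, against 5.02, 5.01, 4.53, 4.49, 5.02 and 4.45 on CD34- arrays 1 to 6. All CD34+ arrays lay above all CD34- arrays, with CD34+ array 3 the lowest of its group. The CD34+ mean was 9.13 ± 0.81 and the CD34- mean 4.75 ± 0.29 (n = 6 each, SD). Grem1 was 20.7-fold higher (log2 difference 4.37, SE 0.31, limma adjusted p = 1.59e-06), and without CD34+ arrays 1, 3 and 5 the difference was 4.66. The suffix _a_at denotes probes that match alternative transcripts of 1 gene.

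Grem1 is also known from dermal cells, and markers of such cells were read in the same arrays. Of 12 dermal fibroblast markers 6 were called higher and 1 lower in CD34+ cells (the lower 1, Thy1, is also on the T cell list), beside 25.2% of 18193 genes with 1 probe set each (7.73% higher and 17.5% lower). With CD34+ arrays 1, 3 and 5 left out 5 were higher and 1 lower, and the median difference was 0.42, beside 1.04 with all arrays. The summed linear level of the fibroblast markers was 697 to 1664 in CD34+ and 495 to 772 in CD34- arrays. Both sums include Thy1, which averaged 6.73 in CD34+ and 8.63 in CD34- arrays and was the highest of these markers in CD34- arrays. The sums therefore understate how far the markers called higher differ. Of 10 dermal papilla markers 2 were higher and 1 lower, with summed levels of 201 to 428 in CD34+ and 283 to 422 in CD34- arrays. Of the 10 papilla markers 3 averaged within the Trpn range in CD34+ and 5 in CD34- arrays. Those within it in both fractions were Sox2 (2.43 in CD34+ against 2.37 in CD34- arrays), Corin (2.53 against 2.55) and Prom1 (2.90 against 2.90). Crabp1 (2.63) and Wif1 (2.73) were within it in CD34- arrays only, so that their differences may be understated. The other papilla markers read above the range in both fractions. The papilla markers called higher were Wif1, which is also known from the bulge, and Hhip, and the one called lower was Rspo3 (-2.02). Leaving out CD34+ arrays 1, 3 and 5 gave 3 higher and 1 lower. The part of the fibroblast transcripts in the Grem1 difference was not tested.

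The pattern of Grem1 over the 12 arrays was most like those of Adcy1 (Pearson r = 0.997), an adenylyl cyclase, Krt24 (0.996), a keratin, and Lhx2 (0.994), a LIM-homeobox factor, among probe sets tied to 1 gene. These correlations describe 12 arrays that share RNA in pairs and are set mostly by the difference between fractions. Over the same arrays Fst was most like Nfatc1 (0.978), Fgfr1 (0.978) and Armcx2 (0.973). Bambi was most like Ddah2 (0.969), Krtap17-1 (0.963) and Cacna1c (0.961).

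Sostdc1 encodes a secreted cystine-knot protein, also called Wise or ectodin, that binds BMPs and also modulates WNT signalling. Its 2 probe sets, annotated with the same cDNA (BC021458), did not give the same call. Probe set 1460250_at read 9.27, 9.40, 8.22, 9.57, 8.49 and 9.06 on CD34+ arrays 1 to 6, against 9.74, 9.89, 9.46, 9.99, 9.76 and 9.33 on CD34- arrays 1 to 6. Of the CD34+ arrays 4 lay below every CD34- array, and arrays 3 and 5 were the lowest. The difference was -0.69 (SE 0.22, limma adjusted p = 0.0362), and it was -0.35 without CD34+ arrays 1, 3 and 5 (adjusted p = 0.187). The call was also lost on leaving out single arrays, namely CD34+ array 3 (adjusted p = 0.0566), CD34+ array 5 (0.0807), CD34+ array 6 (0.0515), and CD34- arrays 1 (0.0650), 2 (0.0708), 4 (0.0816) and 5 (0.0702).

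The other Sostdc1 probe set, 1449340_at, read 9.63, 10.00, 8.86, 9.64, 8.84 and 9.61 on CD34+ arrays 1 to 6, against 9.62, 9.32, 9.54, 10.04, 9.64 and 9.76 on CD34- arrays 1 to 6. The groups overlapped, and again CD34+ arrays 3 and 5 were lowest. The difference of -0.22 did not pass (95% interval -0.65 to 0.20, limma adjusted p = 0.421), and it was 0.098 without CD34+ arrays 1, 3 and 5 and 0.048 after a further quantile normalization. Sostdc1 values were thus between 8.22 and 10.04 in both fractions by either probe set, and the direction of the difference was not settled by the pair.

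Nog, which encodes noggin, a secreted inhibitor of BMP2 and BMP4, was read by 1 probe set (1422300_at) at 3.47, 3.64, 4.17, 3.17, 3.38 and 3.68 on CD34+ arrays 1 to 6, against 3.21, 3.14, 3.21, 3.31, 3.36 and 3.22 on CD34- arrays 1 to 6. These values lie not far above the Trpn controls, and 5 of the 6 CD34+ arrays lay above all CD34- arrays. The difference of 0.34 did not pass (95% interval 0.045 to 0.64, limma adjusted p = 0.0932). Leaving out CD34+ array 4, the lowest of its group, brought it past the threshold (0.43, adjusted p = 0.0267). Averaging arrays 1-2, 3-4 and 5-6 before the fit (adjusted p = 0.0288) or weighting the arrays (0.30, adjusted p = 0.0412) did so too, while without CD34+ array 3, the highest, it was 0.23 (adjusted p = 0.127).

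Fst encodes follistatin, a secreted protein that binds activins tightly and some BMPs more weakly. Probe set 1434458_at read 10.02, 10.35, 9.36, 9.73, 9.88 and 10.17 on CD34+ arrays 1 to 6, against 9.22, 9.20, 8.93, 8.82, 8.72 and 8.80 on CD34- arrays 1 to 6. The fractions did not overlap. By this probe set Fst was 1.96-fold higher (log2 difference 0.97, SE 0.16, limma adjusted p = 0.000749), and the difference was 1.14 without CD34+ arrays 1, 3 and 5.

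The second Fst probe set, 1421365_at, read 8.98, 9.14, 9.37, 8.90, 8.91 and 8.92 on CD34+ arrays 1 to 6, against 8.83, 9.10, 8.11, 8.53, 8.48 and 7.35 on CD34- arrays 1 to 6. CD34- array 6 was the lowest and CD34- array 2 reached into the CD34+ range. The SD was 0.19 in CD34+ and 0.61 in CD34- arrays. The difference of 0.64 had the same sign as that of the first probe set but did not pass (95% interval 0.13 to 1.15, limma adjusted p = 0.0684). Leaving out CD34- array 2 brought it past the threshold (0.78, adjusted p = 0.0278), while without CD34- array 6 it was 0.43 (adjusted p = 0.0897). It also passed after a further quantile normalization (0.92, adjusted p = 0.0351) and with a minimum mean of 4 (adjusted p = 0.0459).

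Fstl3 encodes a follistatin-like protein that, like follistatin, binds activins. It moved the other way. Its probe set 1422803_at read 5.62, 5.80, 5.37, 5.82, 5.58 and 5.90 on CD34+ arrays 1 to 6, against 6.36, 6.46, 6.07, 6.55, 6.53 and 6.03 on CD34- arrays 1 to 6. The fractions did not overlap, and the nearest arrays were CD34+ array 6 and CD34- array 6. Fstl3 fell by 0.65 (SE 0.12, limma adjusted p = 0.00218), a 1.57-fold lower level. Without CD34+ arrays 1, 3 and 5 the difference was -0.49 (adjusted p = 0.0298). Its pattern over the 12 arrays was most like those of Sqstm1 (Pearson r = 0.983), an autophagy receptor, Mgst3 (0.982), a microsomal glutathione transferase, and Cisd1 (0.974), all of which were lower in CD34+ cells.

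Bambi encodes a membrane protein that resembles a type I receptor of the family but lacks the kinase domain, and so acts as a pseudoreceptor. Its probe set 1423753_at read 5.55, 5.59, 5.37, 5.31, 5.44 and 5.00 on CD34+ arrays 1 to 6, against 4.37, 4.57, 3.90, 4.06, 4.16 and 3.80 on CD34- arrays 1 to 6. The fractions did not overlap, and the CD34+ arrays spanned less than 1 log2 unit. Bambi was 2.35-fold higher (log2 difference 1.23, SE 0.14, limma adjusted p = 6.42e-05), and the difference was 1.16 without CD34+ arrays 1, 3 and 5. Bambi is itself known as a gene that BMP signalling induces.

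Twsg1 encodes twisted gastrulation, a secreted protein that joins BMPs and chordin in 1 complex and can either curb or aid BMP signalling. Its 4 probe sets did not all behave alike. Probe set 1450388_s_at read 7.41, 7.88, 7.19, 8.50, 7.50 and 7.99 on CD34+ arrays 1 to 6, against 8.75, 8.78, 8.99, 8.92, 8.60 and 9.33 on CD34- arrays 1 to 6. The fractions did not overlap, although CD34+ array 4 came close to CD34- array 5. By this probe set Twsg1 was 2.22-fold lower (log2 difference -1.15, SE 0.20, limma adjusted p = 0.00122). Without CD34+ arrays 1, 3 and 5 the difference was -0.77 (adjusted p = 0.0134). The suffix _s_at denotes probes that can match more than 1 transcript, so part of this signal may belong to another gene.

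Probe set 1421832_at, annotated with the same cDNA (BC004850), read 3.98, 3.15, 4.07, 3.43, 3.99 and 3.30 on CD34+ arrays 1 to 6, against 4.33, 4.63, 4.47, 4.50, 4.21 and 4.23 on CD34- arrays 1 to 6. The fractions did not overlap here either. The difference was -0.74 (SE 0.17, limma adjusted p = 0.00625) and -1.10 without CD34+ arrays 1, 3 and 5 (adjusted p = 0.000178), arrays that were low in the first probe set and high in this one within their fraction. The remaining 2 probe sets, annotated with other cDNAs, overlapped between fractions and did not pass. Probe set 1426073_at differed by 0.096 (95% interval -0.18 to 0.37, limma adjusted p = 0.592) and probe set 1426179_a_at by 0.13 (95% interval -0.18 to 0.44, adjusted p = 0.530). The difference of 1426179_a_at was 0.0010 without CD34+ array 3 and -0.12 without CD34+ arrays 1, 3 and 5, and that of 1426073_at was -0.014 without CD34+ array 4.

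The Twsg1 pattern by 1450388_s_at was most like those of Ivns1abp (Pearson r = 0.986), Il13ra1 (0.980) and Hnrnpf (0.979) over the 12 arrays. T cell markers were lower in the same fraction as Twsg1 and Fstl3, with 7 of 7 called lower and summed linear levels of 344 to 882 in CD34+ against 1644 to 3088 in CD34- arrays. Langerhans and myeloid markers had 4 of 6 called lower (3 when CD34+ arrays 1, 3 and 5 were left out), with sums of 332 to 385 in CD34+ against 525 to 955 in CD34- arrays. The part of these transcripts in the lower values of Twsg1 and Fstl3 was not tested. Keratinocyte markers were also lower in CD34+ cells, with 5 of 6 called. Over 18193 genes, 17.5% were called lower and 7.73% higher. Endothelial markers had 0 of 5 called by limma (1 at an unadjusted p under 0.05), with sums of 55.0 to 75.1 in CD34+ and 55.0 to 64.4 in CD34- arrays. The 5 melanocyte markers had 2 higher and 1 lower (1 and 1 on leaving those arrays out), with sums of 1011 to 2084 in CD34+ and 342 to 441 in CD34- arrays. Mitf read highest of the 5 in both fractions (10.15 in CD34+ against 7.01 in CD34- arrays) and so weighs most in these sums. The median difference of the 5 was -0.26.

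**Figure D2:**
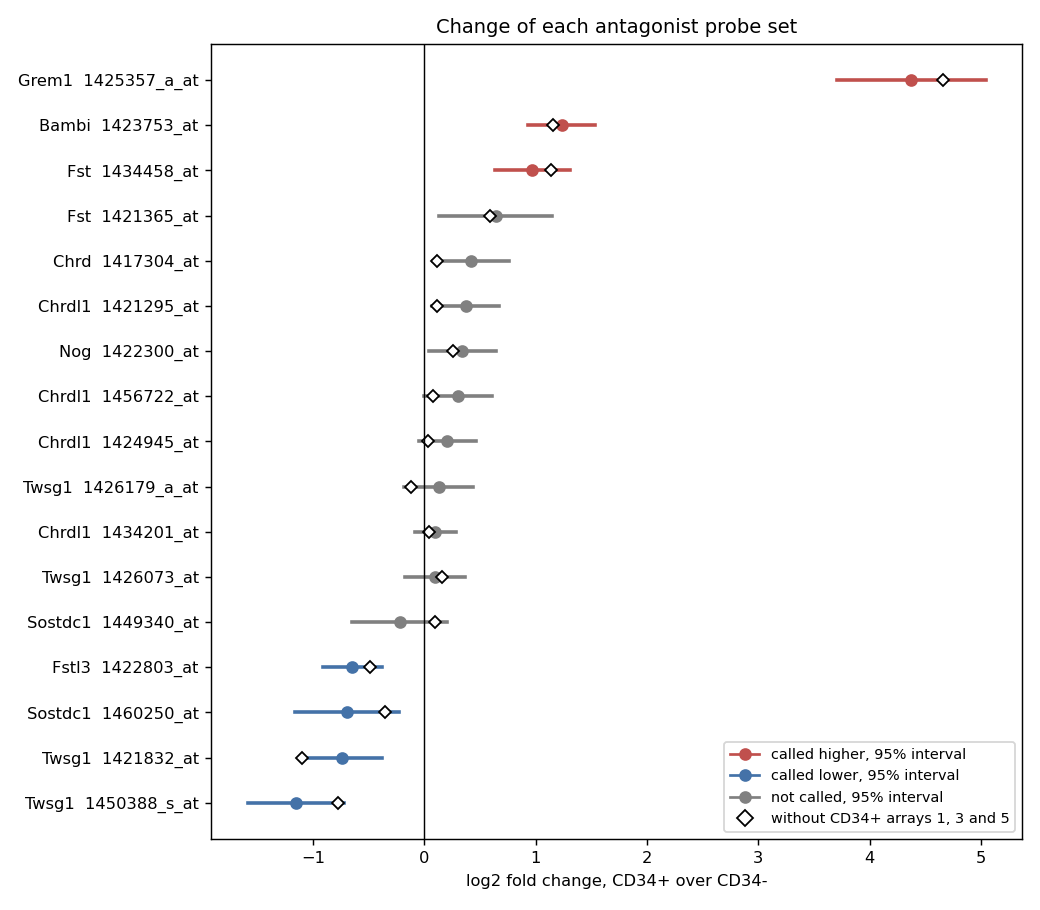
Log2 fold change of each of the 17 antagonist probe sets, CD34+ over CD34- (horizontal axis), with 95% intervals, in red where called higher, blue where called lower and grey where not called, and white diamonds for the value without CD34+ arrays 1, 3 and 5. Grem1 stands at 4.37, the other probe sets lie between -1.15 and 1.23, and the diamonds of Sostdc1 1449340_at and Twsg1 1426179_a_at lie on the other side of 0 from their circles.

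Chrd encodes chordin, a large secreted protein that traps BMP2, BMP4 and BMP7 and is cut by proteases of the tolloid family. Its probe set 1417304_at read 5.46, 4.64, 5.34, 4.57, 5.01 and 4.80 on CD34+ arrays 1 to 6, against 4.70, 4.69, 4.73, 4.28, 4.54 and 4.40 on CD34- arrays 1 to 6. The highest values were those of CD34+ arrays 1, 3 and 5, while CD34+ arrays 2 and 4 lay within the CD34- range. The difference of 0.42 did not pass (95% interval 0.075 to 0.76, limma adjusted p = 0.0774) and was 0.11 without CD34+ arrays 1, 3 and 5 (adjusted p = 0.608). It was 0.48 with CD34+ array 2 left out (adjusted p = 0.0452) and 0.50 with CD34+ array 4 left out (adjusted p = 0.0305), and passed in both cases. It passed as well on averaging arrays 1-2, 3-4 and 5-6 before the fit (adjusted p = 0.0228) and with the array number as a block (0.0343).

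Chrdl1 encodes chordin-like 1, a secreted relative of chordin that binds BMPs and is also called neuralin or ventroptin. Its 4 probe sets were at the low end of the scale, with CD34+ means of 2.47 to 3.45 and CD34- means of 2.38 to 3.08, so a difference of this gene may be compressed. None of the 4 was called by limma over all probe sets, and 1 had an unadjusted p under 0.05. The highest reading one, 1421295_at, was at 3.73, 3.23, 3.82, 3.29, 3.58 and 3.08 on CD34+ arrays 1 to 6, against 3.11, 3.19, 3.37, 3.12, 2.87 and 2.84 on CD34- arrays 1 to 6. CD34+ arrays 1, 3 and 5 were again the highest, and here they were the only ones above all CD34- arrays. Its difference was 0.37 (95% interval 0.069 to 0.67, limma adjusted p = 0.0759), and 0.12 without those arrays. The differences of the other 3 were 0.30, 0.21 and 0.097. Of single arrays left out, CD34+ array 6 brought 1421295_at past the threshold (0.45, adjusted p = 0.0358) and CD34+ array 4 brought 1456722_at past it (0.39, adjusted p = 0.0408).

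**Figure D3:**
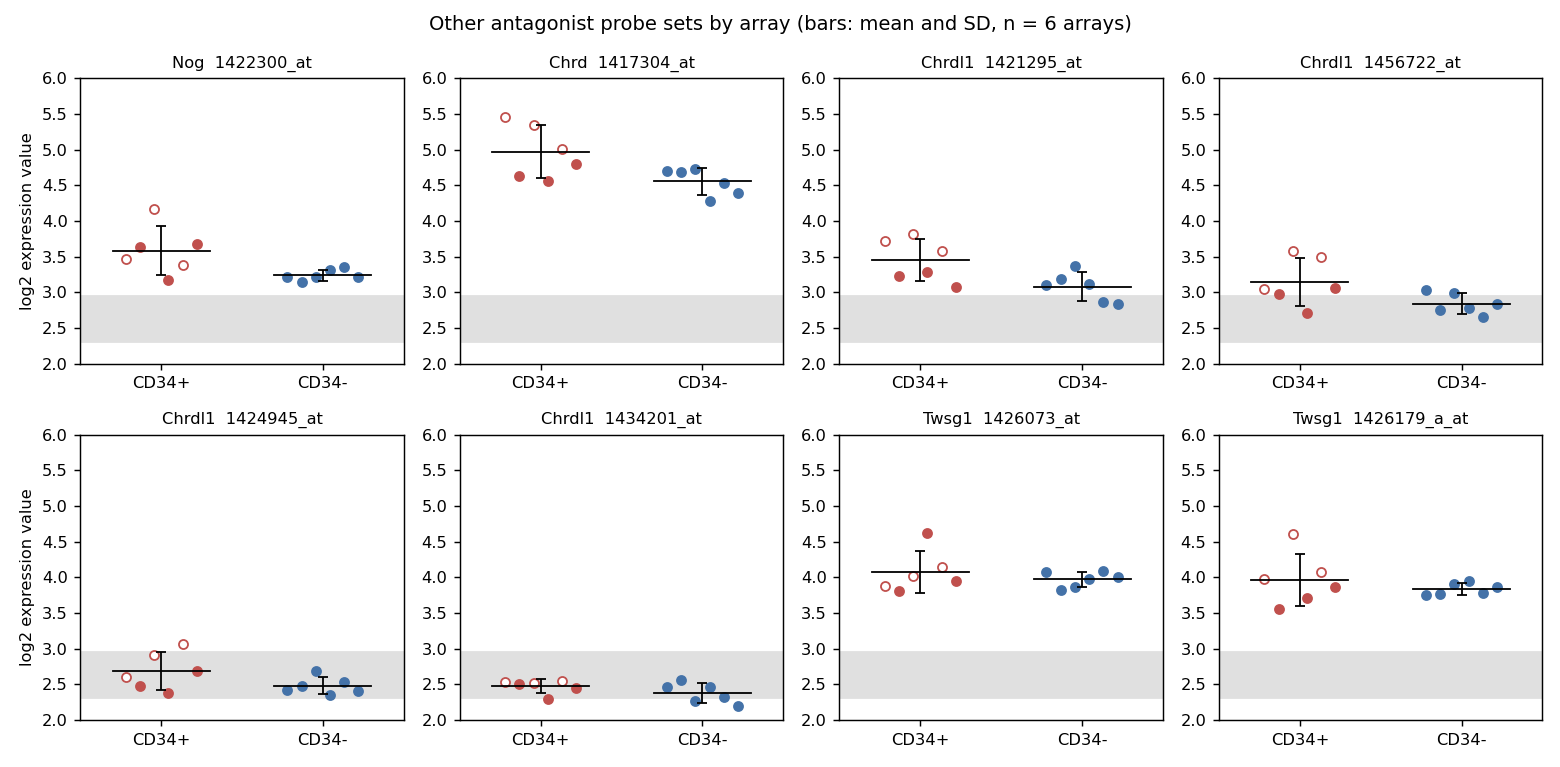
Log2 expression values (vertical axes, from 2 to 6 and so not from 0) of the 8 remaining antagonist probe sets on 6 CD34+ arrays (red, left) and 6 CD34- arrays (blue, right), with open circles for CD34+ arrays 1, 3 and 5, bars for mean and SD, and a grey band for the range of the Trpn controls, 2.31 to 2.95. All 8 overlap between the fractions, and 2 of the Chrdl1 probe sets, 1424945_at and 1434201_at, have both group means within the band.

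Other genes of the pathway were counted in 6 lists, with 64 of 69 genes measured and 1 probe set per gene, that with the highest mean over the arrays. In all 9 were called higher and 7 lower in CD34+ cells, 16 of 64 or 25.0%, which is close to the 25.2% of the 18193 genes (7.73% higher and 17.5% lower). The same shares are the background of each list below. The median difference of the 64 was 0.12, beside 0.040 over the 18193 genes. Of 14 other extracellular antagonists and modulators 2 were higher and 0 lower, and 3 were higher with CD34+ arrays 1, 3 and 5 left out, where Nbl1, a secreted BMP antagonist, passed too (0.72, adjusted p = 0.00806, beside 0.34 and an adjusted p of 0.240 with all arrays). The called ones were Fstl1 (a CD34+ mean of 6.22 ± 1.24 against a CD34- mean of 3.49 ± 0.34, n = 6 each, SD, difference 2.73, limma adjusted p = 0.000959), a secreted follistatin-like glycoprotein, and Bmper (4.07 ± 0.47 against 2.92 ± 0.18, difference 1.14, adjusted p = 0.000811), a secreted BMP-binding protein whose CD34- level lay within the Trpn range, so that its difference may be understated. None of the 4 proteases that cut chordin, or act beside those that do, was called by limma, and 3 had an unadjusted p under 0.05, with Bmp1 at -0.35 (adjusted p = 0.0752), although another of the 3 Bmp1 probe sets was called lower.

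Of 12 ligands, the targets of these antagonists, 1 was called higher and 2 lower. Bmp6 read 5.71 ± 0.82 in CD34+ and 3.68 ± 0.31 in CD34- arrays (difference 2.04, limma adjusted p = 0.000564). Bmp4, a ligand of Grem1, noggin and chordin, read 6.71 ± 0.59 in CD34+ and 8.52 ± 0.16 in CD34- arrays (difference -1.81, adjusted p = 0.000117). Bmp7 (-0.48, adjusted p = 0.0213) lost its call when CD34+ arrays 1, 3 and 5 were left out (adjusted p = 0.0678), and the activin subunits Inhba (0.91, adjusted p = 0.262) and Inhbb (-0.23, adjusted p = 0.427) did not pass. Of 14 receptors and co-receptors 0 were called higher and 2 lower. The lower ones were the co-receptors Rgmb (-1.40, with 3 of 6 probe sets called lower) and Tgfbr3 (-0.96, with 1 of 2). Without CD34+ arrays 1, 3 and 5, 2 of the 14 genes were higher and 3 lower.

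Of 12 intracellular transducers and inhibitors 2 were higher and 3 lower. The inhibitory SMAD Smad6, a known BMP target, rose by 2.06, to 4.99 in CD34+ against 2.93 in CD34- arrays, and may be understated, as the CD34- mean lay within the Trpn range. Smad1, a BMP transducer, rose by 0.54 (limma adjusted p = 0.0455), although another of its 3 probe sets was called lower. The activin transducers Smad2 (-0.87) and Smad3 (-0.66) and the ubiquitin ligase Smurf1 (-0.90) fell. For each, only 1 probe set was called lower, out of 2 for Smad2, 3 for Smad3 and 2 for Smurf1. Of 8 genes known as BMP targets 4 were higher and 0 lower, with a median difference of 0.75, and 5 were higher without CD34+ arrays 1, 3 and 5, where Id3 passed as well (1.16, adjusted p = 0.0273). The largest rises were those of Id2 (2.17), Hey1 (1.20) and Id4 (1.12), of which Id2 and Id4 encode inhibitors of helix-loop-helix factors, while Id1 was at -0.030 (adjusted p = 0.948). These genes also answer to other signals.

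**Figure D4:**
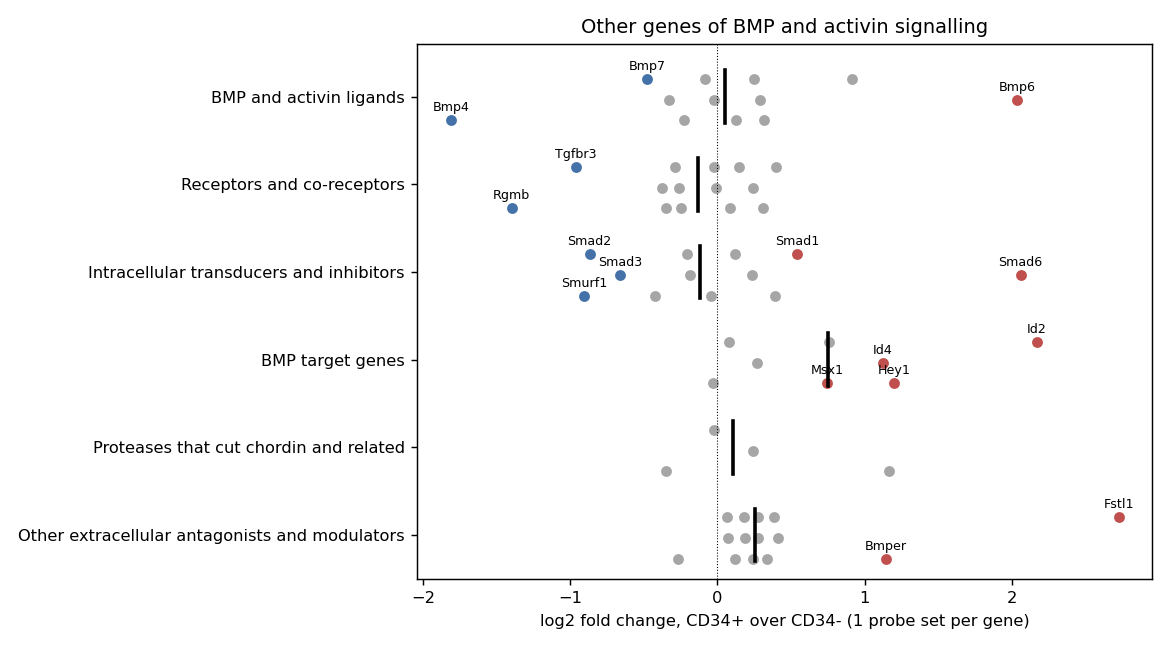
Log2 fold change, CD34+ over CD34- (horizontal axis), of 64 other genes of BMP and activin signalling in 6 lists, 1 point per gene, in red where called higher, blue where called lower and grey where not called, with a black line at each list's median. BMP target genes have the highest median, 0.75, and called genes are named, from Bmp4 at -1.81 to Fstl1 at 2.73.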

How the data were processed

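RNA of CD34+ and CD34- cells was hybridised to 12 arrays. The deposited table holds log2 values that the authors computed by RMA, as the submitters' processing notes name it. Its version, and whether all arrays were normalized as 1 set, are not given in the sources used here. Of 45101 probe sets 64 controls were left out. The platform annotation in GEO (symbols brought up to date by Entrez identifier) gives 1 gene for 34945 probe sets, several for 932 and none for 9160. The fractions were tested against each other by limma 3.58.1 (R 4.3.3; moderated, two-sided, no block), with p-values adjusted over 45037 probe sets. The number of arrays limits the precision. The fit was tested on simulated data. The alternatives were 2 other scalings, means of arrays 1-2, 3-4 and 5-6, the array number as a block, leaving out arrays, a minimum mean of 4, array weights and 1 probe set per gene. Members and lists were chosen with earlier results of these data known. Named genes are the 9 members and up to 3 called genes per direction of each list. For members with a call, the 3 genes with the highest Pearson r to the member's highest-mean probe set are named too. Marker genes, and the uncalled Bmp1, Inhba, Inhbb, Id1, Id3 and Nbl1, fall outside this rule and were named after their values were seen. Marker lists were summed on the linear scale. Motifs were searched on both strands.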

Additional observations from a re-analysis of the deposited data

How the results depend on the processing

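Grem1, Bambi, Fst 1434458_at, Fstl3 and both called Twsg1 probe sets kept their call and direction under all alternatives in which they were tested. The lowest and highest differences were 4.22 and 4.67 for Grem1, 1.13 and 1.32 for Bambi, 0.87 and 1.26 for Fst, and -0.75 and -0.49 for Fstl3. Over 20 alternatives and 17 probe sets, 297 of 326 values kept direction and side of the threshold, 9 lost a call, all of Sostdc1 1460250_at, 13 gained one and 7 turned sign. The sign turns were all of uncalled probe sets: Chrdl1 1434201_at with median centring (-0.0047), Sostdc1 1449340_at with a further quantile normalization (0.048) and without CD34+ arrays 1, 3 and 5 (0.098), Twsg1 1426073_at with quantile normalization (-0.028), median centring (-0.0053) and without CD34+ array 4 (-0.014, beside up to 0.15 on leaving out the other single arrays), and Twsg1 1426179_a_at without CD34+ arrays 1, 3 and 5 (-0.12). Sostdc1 1460250_at was at -0.41 with quantile normalization (adjusted p = 0.0860). The cause was not tested.

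Leaving out each array in turn gave 6 to 10 called members and 7439 to 12318 called probe sets, beside 7 and 9704. With 1 probe set per gene 4750 of 18193 genes were called, among them 5 of the 9 members. Fewer features were tested there, and Sostdc1 was represented by its uncalled probe set 1449340_at. The share of lower calls was 64.6%, and it was 58.3% with quantile normalization, 78.9% with median centring and 52.8% without CD34+ arrays 1, 3 and 5. Median centring moved the median difference of all probe sets by -0.10, to -0.038.

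Whether same-numbered arrays of the fractions pair was not settled. The correlations of their deviations were -0.24 to 0.49, and 3 of 6 were best with their own number. With the array number as a block, 9 members and 10209 probe sets were called, the added members being Chrd (adjusted p = 0.0343) and Chrdl1 1421295_at (0.0455). With means of arrays 1-2, 3-4 and 5-6, 9 members, 5 higher and 4 lower, and 10560 probe sets were called, the added members being Chrd (adjusted p = 0.0228) and Nog (0.0288). Of the 17 probe sets 6 averaged under 4 on the log2 scale, where differences may be compressed. No array of either fraction stood apart from its group by Dixon's test for any member, in 34 groups tested. That test looks for 1 extreme value in a group, so it cannot flag CD34+ arrays 1, 3 and 5 where they deviate together.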

Other observations

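After each fraction's mean was removed, the deviations of Grem1 over the 12 arrays were most like those of Adcy1 (Pearson r = 0.954), Krt24 (0.944) and Mtpn (0.940), of which Adcy1 and Krt24 were also its nearest over the undivided values. Those of Fst were most like Iftap (0.936), Celf4 (0.935) and Insig1 (0.927), and those of Bambi most like B3gnt2 (0.932), Dkk2 (0.929), a secreted WNT inhibitor, and Gdpd1 (0.862). Fstl3 was nearest to Sqstm1 (0.938), Epn2 (0.933) and Mgst3 (0.931), Twsg1 to Ap1g1 (0.973), Mycbp2 (0.958) and Clasp1 (0.949), and Sostdc1 to Stx6 (0.970), Stt3b (0.968) and Tomm20 (0.966). Over the values with fraction means kept, Sostdc1 was nearest to Stt3b (0.971), Akr1a1 (0.957) and Herpud2 (0.955). All Sostdc1 correlations here are those of 1449340_at, its probe set with the highest mean, which was not called. The correlations given are the highest of 34945 values each and describe these arrays, which share RNA in pairs. For Grem1, CD34+ array 3 (7.64) lay furthest from its group mean of 9.13, and the part of that array in the Grem1 correlations was not tested.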
